A study of Homo sapiens with 4 samples.

Results

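The genes described here are 8 histone deacetylases (HDAC1, HDAC2, HDAC3, HDAC8, HDAC4, HDAC5, HDAC7 and HDAC9) and the acetyltransferases CREBBP and EP300, 10 of the 19775 genes that a probe set with a single symbol names on this array. Their members on the array were found as the probe sets whose platform annotation gives one of these symbols alone, which were 25 of the 54613 probe sets that are not controls. RNA came from Raji, an established cell line that carries Epstein-Barr virus and derives from Burkitt lymphoma, a germinal centre B-cell tumour. The DLEU1-downregulated group was 1 clone, measured on 2 arrays, whose DLEU1 gene had been targeted with TALENs, engineered nucleases directed to a chosen DNA sequence. DLEU1 encodes a long non-coding RNA. The control group was a wild-type clone of the same line, also on 2 arrays, and both clones grew in serum-containing RPMI medium. The labels do not say whether the 2 arrays of a clone came from separate cultures, so the p-values below cover no more than array-to-array spread, which may be technical, and a difference between clones cannot be told apart from an effect of DLEU1.

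Histone deacetylases remove acetyl groups from lysines of histones and other proteins, and CREBBP and EP300, a closely related pair, add them. The class I enzymes HDAC1, HDAC2, HDAC3 and HDAC8 are nuclear, and apart from HDAC8 they act as the catalytic subunits of large corepressor complexes. The class IIa proteins HDAC4, HDAC5, HDAC7 and HDAC9 have little deacetylase activity of their own, move between nucleus and cytoplasm with their phosphorylation, and repress genes bound by MEF2 transcription factors. In germinal centre B cells CREBBP and EP300 acetylate enhancers that the repressor BCL6 silences together with HDAC3, and the CREBBP gene is often mutated in lymphomas of that origin.

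Of the 20 tested probe sets of the 10 genes, 3 were lower and 2 higher in the DLEU1-downregulated clone. These were 25% of them, where 33.8% of all 32768 probe sets tested passed the same test. The largest differences were in the class IIa genes HDAC9 and HDAC7. HDAC9 was 7.53-fold lower and HDAC7 was 3.67-fold lower in their brightest probe sets, by the ratio of mean normalised intensities. HDAC1 fell by 0.20 on the log2 scale after quantile normalization, a difference that turned to 0.19 on the values as deposited. A probe set of HDAC8 and one of CREBBP rose by 0.82 and 0.86, while the brightest probe sets of these genes did not pass the test. HDAC2, HDAC3, HDAC4, HDAC5 and EP300 passed in no probe set.

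The sequences at the starts of the 2 genes with the largest falls are shown because HDAC9 and HDAC7 were lower together and HDAC9 has several annotated starts. They come from RefSeq on GRCh38.p14, run from 250 bases before to 10 bases after an annotated start, and were available for 9 of the 10 genes, HDAC5 being the exception. Capitals mark matches on either strand to the MEF2 consensus, to the CCAAT box (CCAAT) and to the GC box (GGGCGG). The HDAC9 windows lie on the forward strand of chromosome 7 at chr7:18086575-18086834 for the start furthest upstream and at chr7:18495499-18495758 for an internal start. The HDAC7 window lies on the reverse strand of chromosome 12 at chr12:47819894-47820153.
HDAC9, furthest upstream start: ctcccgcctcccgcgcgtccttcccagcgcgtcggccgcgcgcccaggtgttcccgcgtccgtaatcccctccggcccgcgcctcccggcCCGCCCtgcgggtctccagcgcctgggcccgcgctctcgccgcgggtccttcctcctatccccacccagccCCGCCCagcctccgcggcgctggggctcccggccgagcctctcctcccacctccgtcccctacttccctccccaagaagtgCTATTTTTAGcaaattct
HDAC9, internal start: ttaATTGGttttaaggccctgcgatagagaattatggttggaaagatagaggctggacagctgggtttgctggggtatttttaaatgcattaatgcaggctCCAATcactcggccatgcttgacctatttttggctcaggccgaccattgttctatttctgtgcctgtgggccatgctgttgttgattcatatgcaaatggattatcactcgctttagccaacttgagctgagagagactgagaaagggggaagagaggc
HDAC7: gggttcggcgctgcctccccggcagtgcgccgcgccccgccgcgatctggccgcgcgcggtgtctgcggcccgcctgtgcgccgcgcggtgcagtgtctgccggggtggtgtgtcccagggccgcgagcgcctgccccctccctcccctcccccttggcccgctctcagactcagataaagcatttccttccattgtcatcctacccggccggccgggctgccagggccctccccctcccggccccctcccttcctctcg

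The upstream HDAC9 window was 73.5% G and C with 32 CpG dinucleotides, against 45.8% and 4 in the internal window. It held 1 match to the MEF2 consensus, which began 8 bases before the start, and this was the only such match in the 18 windows of the 9 genes. Over all 35116 windows of that length 2.86% held a MEF2 match, 32.7% a CCAAT box and 43.1% a GC box. The E-box CACGTG and the palindromic cyclic AMP response element, searched likewise on both strands, were in 6.6% and 1.8% of all windows and in neither gene's windows shown. None of these motifs contains another. The HDAC7 window was 75% G and C and held no match to any of them. Of the 18 member windows 6 held a GC box and 4 a CCAAT box. HDAC4 and HDAC9 had 5 windows each, and some HDAC9 windows overlap and share matches, so these are not counts of independent windows. The files do not say from which start either gene is transcribed in Raji cells.

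DLEU1 itself read 504.5 and 513.3 in the DLEU1-downregulated clone, against 1400.5 and 1300.5 in the control clone (log2 change -1.38, limma adjusted p = 2.92e-06). All values in the text are MAS5 intensities after quantile normalization, in arbitrary units, unless they are called as deposited, because the deposited arrays had trimmed means of 131 to 197 and so no common scale. Log2 changes were taken on log2(intensity + 16), which understates changes of dim probe sets, and an adjusted p under 0.05 is called past the threshold. The probe sets left out as dim had a mean log2 value below that of an intensity of 11.4, and the median intensity was 19.9. The median log2 change over all 13292 genes tested was -0.01, against 0.18 on the values as deposited. The arrays correlated at 0.989 within the DLEU1-downregulated clone, 0.986 within the control clone and 0.970 to 0.971 between clones. The 6 B-cell markers with a probe set, MS4A1, CD79A, CD79B, PAX5, CD22 and CD74, summed to 18179.6 and 17823.5 in the DLEU1-downregulated clone, against 18466.2 and 18544.7 in the control clone, and 1 of them rose and 4 fell, whereas as deposited 1 rose and 0 fell in limma's test (1 at an unadjusted p under 0.05).

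The share of member probe sets that passed was below that of all probe sets, and that difference was not tested. Among all 32768 probe sets tested 33.8% passed, 17.1% higher and 16.7% lower, and 25% of the 20 tested member probe sets did so. By gene, represented by its brightest probe set, 3 of the 10 fell and limma called 0 higher (0 at an unadjusted p under 0.05), where 20.4% of all genes were called lower and 20.5% higher. On the values as deposited 2 member probe sets were higher and 2 lower, beside 17.2% higher and 5.11% lower of all. The 2 clones did not overlap in 8 of the 20 probe sets, or 40%, against 66% of all probe sets tested. The median log2 change of the 10 genes was -0.09, and 0.21 as deposited, where that of all genes was 0.18. With 4 arrays an exact two-sided permutation test of a single probe set cannot give a p below 0.333, so single calls rest on limma's model across all probe sets. In whole-culture RNA fewer transcripts per cell and fewer cells with the transcript cannot be told apart.

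**Figure D1:**
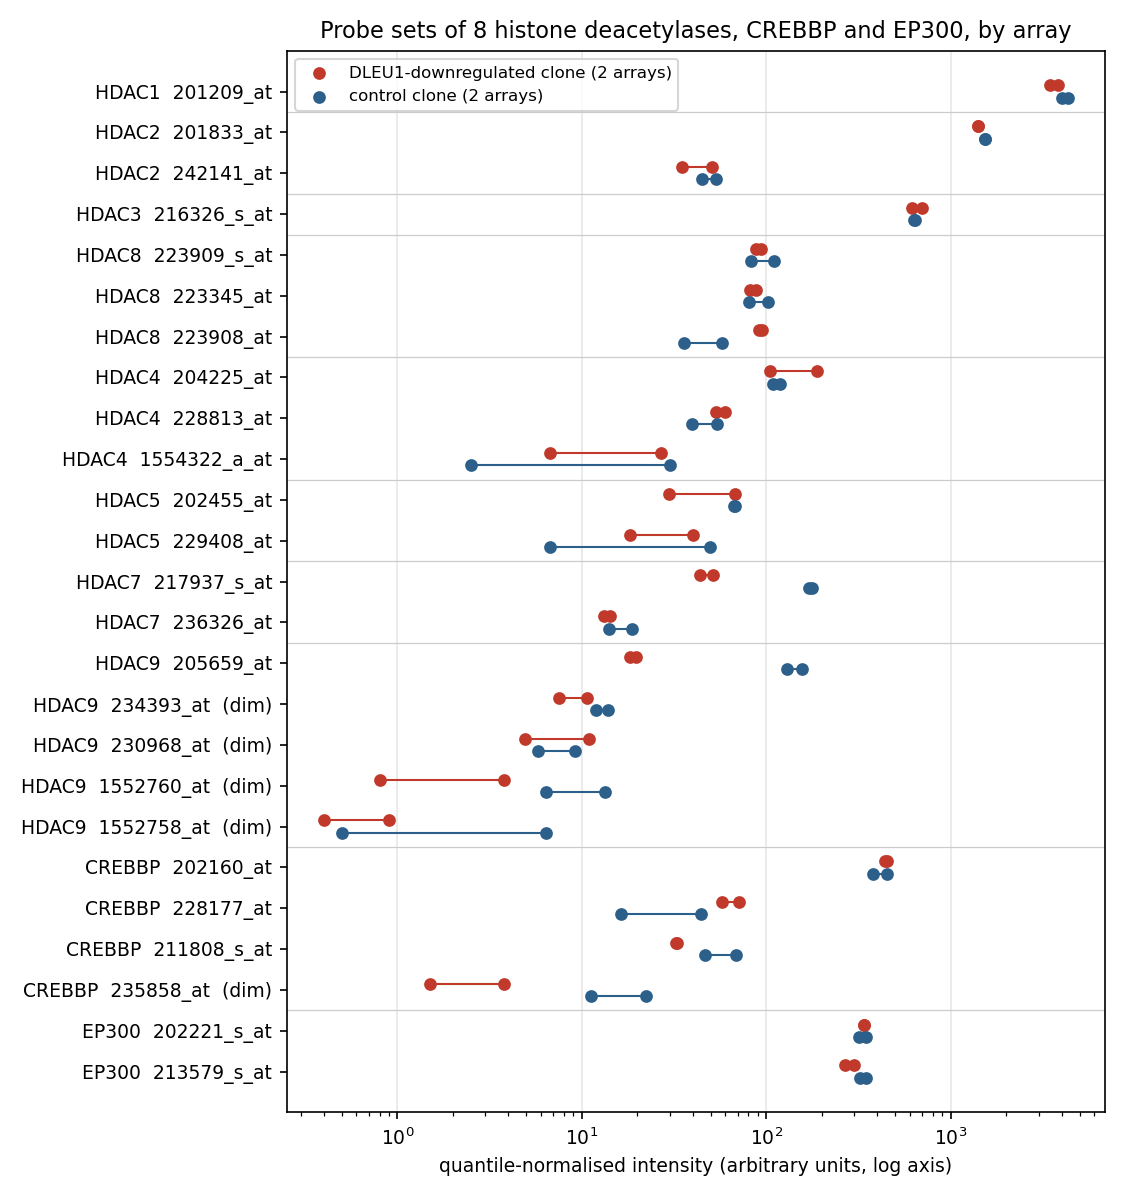
Quantile-normalised intensity (log axis) of the 25 probe sets, with 1 point per array, DLEU1-downregulated clone in red above the control clone in blue, and lines joining the 2 arrays of a clone. HDAC9 (205659_at) and HDAC7 (217937_s_at) have the widest gaps between clones among the tested probe sets, and the probe sets marked dim were not tested.

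HDAC9 is expressed in lymphoid cells and brain, and also has a short splice form that lacks the catalytic domain. Its probe set 205659_at read 19.6 and 18.3 in the DLEU1-downregulated clone, against 129 and 156.7 in the control clone. Both arrays of the DLEU1-downregulated clone lay near the median intensity of all probe sets, and both control arrays lay well above it. The mean was 19 ± 0.9 against 142.8 ± 19.6 (SD, n = 2 arrays each), with a log2 change of -2.18 ± 0.18 (SE, 95% interval -2.58 to -1.77) and a limma adjusted p = 3.21e-05. It ranked 44 of 13292 genes from the lowest log2 change, and 3.77% of all genes were at least 2-fold lower on this scale. Without detection calls it is unknown whether the lower level was above background, so the fold itself is uncertain. On the values as deposited the log2 change was -2.07 (adjusted p = 2.14e-13). With an added 1 in place of 16 the log2 change was -2.84, and with an added 64 it was -1.31.

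The other 4 HDAC9 probe sets had means over the 4 arrays below the limit for dim probe sets and were not tested. The closest to the limit, 234393_at, read 10.7 and 7.5 in the DLEU1-downregulated clone, against 12 and 13.8 in the control clone. The probe set 1552760_at read 3.8 and 0.8, against 13.3 and 6.4. In both of these the clones did not overlap. The probe set 230968_at read 10.9 and 4.9, against 9.2 and 5.8, and 1552758_at read 0.4 and 0.9, against 0.5 and 6.4, with overlap in each. The fall of HDAC9 therefore stands on 1 probe set. Whether this probe set reads the short splice form, the full-length form or both was not tested.

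HDAC7, a repressor of non-lymphoid genes in B-cell progenitors of the mouse, read 43.6 and 51.3 in the DLEU1-downregulated clone in its probe set 217937_s_at, against 171.2 and 176.7 in the control clone. The clones were clearly apart, with little spread between the arrays of either. The mean was 47.5 ± 5.4 against 174 ± 3.9 (SD, n = 2 arrays each), with a log2 change of -1.58 ± 0.15 (SE, 95% interval -1.92 to -1.25) and a limma adjusted p = 6.43e-05. As deposited the log2 change was -1.38 (adjusted p = 2.35e-06). It ranked 128 of 13292 genes from the lowest log2 change. The second HDAC7 probe set, 236326_at, read 14.2 and 13.2, against 18.8 and 14.1, close to the limit for dim probe sets. Its log2 change was -0.12 (95% interval -0.67 to 0.43, adjusted p = 0.742), and the difference between the 2 HDAC7 probe sets was not tested.

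HDAC4, which is regulated by calcium signalling, spread widely between the arrays of the DLEU1-downregulated clone. Its brightest probe set, 204225_at, read 189.3 and 104.7, against 119.4 and 109.1 in the control clone, so the clones overlapped. The log2 change was 0.27 (95% interval -0.23 to 0.78, limma adjusted p = 0.393). Without replicate 2 of the DLEU1-downregulated clone it was 0.66 and passed (adjusted p = 0.0347), and without replicate 1 it was -0.11 (adjusted p = 0.749). With 1 array left in a clone, here and below, limma takes the spread from the other clone. Median centring, with all 4 arrays, gave 0.56 (adjusted p = 0.0117). The probe set 228813_at read 59.7 and 53.2, against 39.7 and 54.1 (log2 change 0.21, adjusted p = 0.450). The probe set 1554322_a_at read 26.9 and 6.7, against 30.2 and 2.5 (log2 change 0.09, adjusted p = 0.902). Both overlapped between the clones.

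HDAC5, a close relative of HDAC4, also spread widely in the DLEU1-downregulated clone. Its probe set 202455_at read 67.7 and 29.5 in the DLEU1-downregulated clone, against 66.9 and 67.5 in the control clone. One of the 2 arrays of the DLEU1-downregulated clone thus matched the control clone and the other was lower. The log2 change was -0.43 (95% interval -1.05 to 0.18, limma adjusted p = 0.264), and without replicate 1 of the DLEU1-downregulated clone it was -0.87 and passed (adjusted p = 0.0413), against 0.01 without replicate 2 (adjusted p = 0.984). The second HDAC5 probe set, 229408_at, read 18.3 and 40, against 6.7 and 49.7, too wide a spread for a difference to be seen.

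Among the class I enzymes HDAC1 and HDAC2, which occupy the same complexes, read slightly lower in the DLEU1-downregulated clone after normalization. HDAC1 (201209_at) read 3818.4 and 3464.1, against 4036.2 and 4300.4 in the control clone, without overlap. The log2 change was -0.20 ± 0.06 (SE, 95% interval -0.32 to -0.07), with limma adjusted p = 0.0274. As deposited the same probe set read 4072.8 and 4149.1, against 3842.9 and 3392.8, and its log2 change of 0.19 (adjusted p = 0.523) lay at the median of all genes on that scale. The call was also lost without replicate 2 of either clone, with log2 changes of -0.15 without that of the control clone and -0.12 without that of the DLEU1-downregulated clone.

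HDAC2 (201833_at) read 1406.3 and 1413.7 in the DLEU1-downregulated clone, against 1528.3 and 1527.4 in the control clone. The arrays of each clone lay close together and the clones did not overlap, but the log2 change of -0.11 (95% interval -0.24 to 0.01) had a limma adjusted p = 0.135. As deposited it was 0.24 (adjusted p = 0.498). A second HDAC2 probe set of much lower intensity, 242141_at, read 50.8 and 34.9, against 44.8 and 53.5, and overlapped between the clones (log2 change -0.16, adjusted p = 0.613).

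HDAC3, the deacetylase of the NCOR and SMRT corepressors, read 619.6 and 696.8 in the DLEU1-downregulated clone, against 628.6 and 636.6 in the control clone. The control arrays lay within the range of the DLEU1-downregulated ones. The log2 change was 0.05, and its 95% interval of -0.13 to 0.23 covers less than a 1.5-fold change in either direction. The limma adjusted p was 0.653, and 0.251 as deposited with a log2 change of 0.40.

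HDAC8, which removes an acetyl group from the cohesin ring and is encoded on the X chromosome, differed between its 3 probe sets. The brightest, 223909_s_at, read 87.8 and 93.7 in the DLEU1-downregulated clone, against 109.7 and 83 in the control clone (log2 change -0.06, 95% interval -0.44 to 0.31, limma adjusted p = 0.805). The next, 223345_at, read 81.1 and 88, against 80.8 and 101.9, and overlapped as well (log2 change -0.09, adjusted p = 0.718). The last, 223908_at, read 91.8 and 94.7, against 57.6 and 35.8, without overlap. Its log2 change was 0.82 ± 0.20 (SE), with adjusted p = 0.0125, and without replicate 1 or 2 of the DLEU1-downregulated clone it stayed at 0.84 and 0.80, no longer past the threshold (adjusted p = 0.0741 and 0.0858). Whether the probe sets read different transcripts was not tested.

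**Figure D2:**
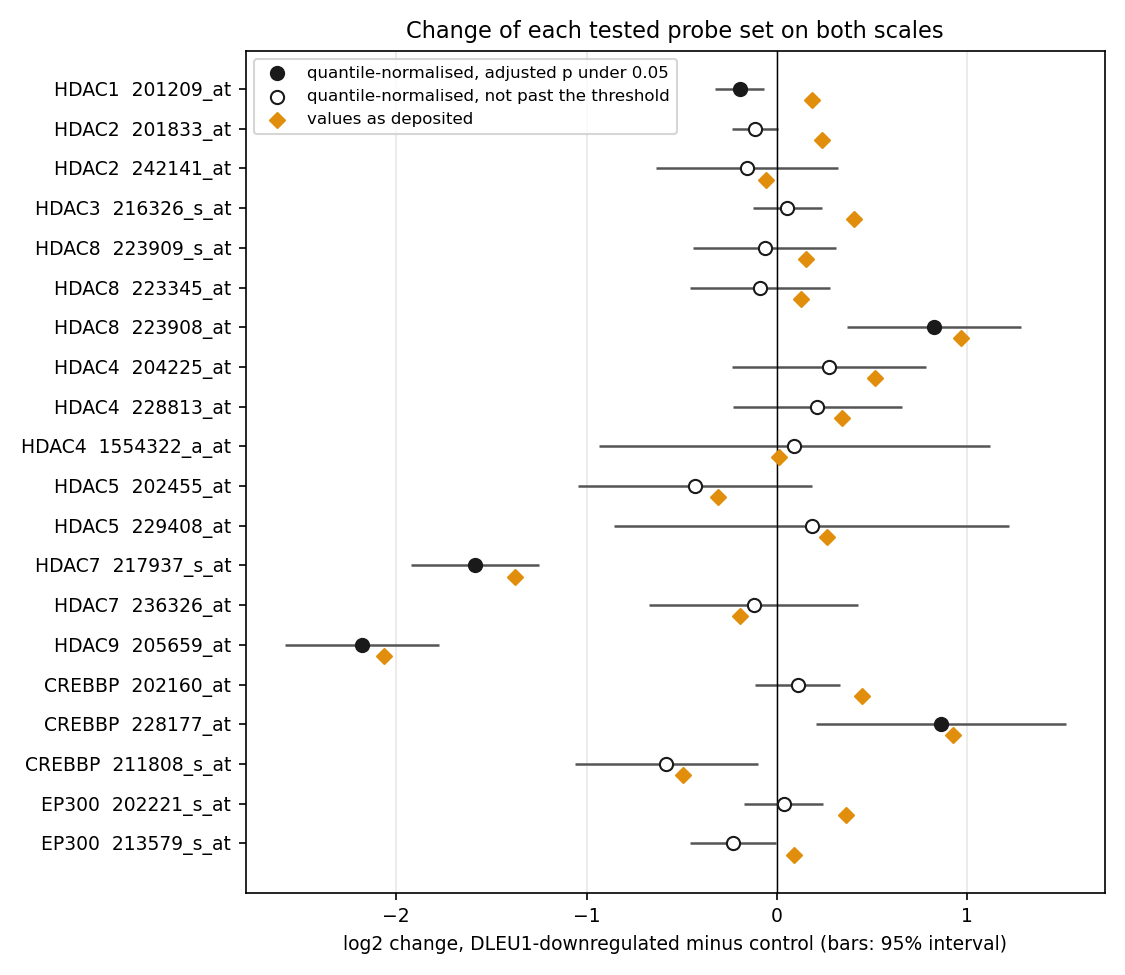
Log2 change (DLEU1-downregulated minus control) of the 20 tested probe sets after quantile normalization (circles, bars for 95% intervals, filled where the adjusted p is under 0.05) and on the values as deposited (diamonds). HDAC9 (205659_at) at -2.18 and HDAC7 (217937_s_at) at -1.58 stand on the same side of 0 on both scales, while HDAC1 crosses 0.

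The acetyltransferase CREBBP was measured by 4 probe sets, 1 of them dim, and 1 of the 3 tested passed. The brightest, 202160_at, read 440.1 and 452 in the DLEU1-downregulated clone, against 450.3 and 377.8 in the control clone, with overlap (log2 change 0.11, 95% interval -0.11 to 0.33, limma adjusted p = 0.445). The probe set 228177_at read 57.8 and 71.3, against 44.3 and 16.4, and its log2 change of 0.86 ± 0.29 (SE) passed with adjusted p = 0.0474. That call rests on the low control replicate 2, since the change was 0.41 without it (adjusted p = 0.181). Without replicate 1 or 2 of the DLEU1-downregulated clone the change was 0.98 and 0.74, no longer past the threshold (adjusted p = 0.114 and 0.228). Another probe set, 211808_s_at, read 32.2 and 32.9, against 68.5 and 46.4, without overlap. Its log2 change was -0.58 (adjusted p = 0.0645), and it was -0.80 without control replicate 2 (adjusted p = 0.0268) and -0.36 without control replicate 1 (adjusted p = 0.263). The dim probe set 235858_at read 3.8 and 1.5, against 11.2 and 22.4. Differences between the CREBBP probe sets were not tested.

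EP300, the paralogue of CREBBP, passed in neither of its 2 probe sets. In 202221_s_at it read 340.4 and 340.6 in the DLEU1-downregulated clone, against 347.5 and 316.8 in the control clone, with overlap (log2 change 0.04, 95% interval -0.17 to 0.24, limma adjusted p = 0.804). In 213579_s_at it read 299.8 and 267.3, against 347 and 323.7. These did not overlap, and the log2 change of -0.23 had adjusted p = 0.108, with an unadjusted p = 0.0452. As deposited the values of this probe set gave a log2 change of 0.09 (adjusted p = 0.859).

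**Figure D3:**
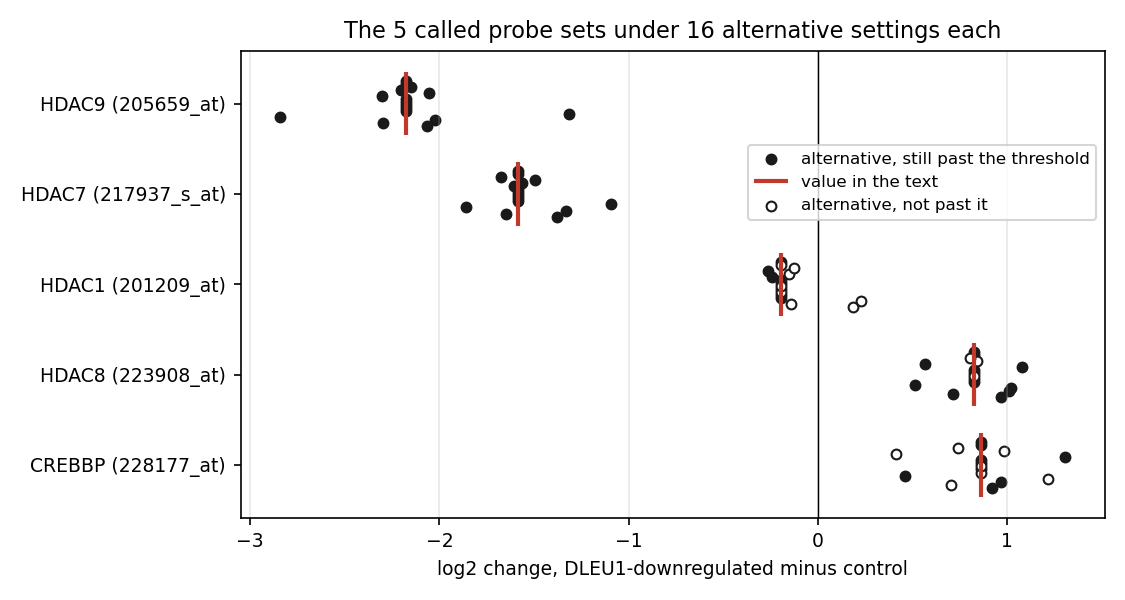
Log2 change (DLEU1-downregulated minus control) of the 5 called probe sets in the text (red lines) and under 16 alternative settings each (points, filled where still past the threshold). HDAC9 ranged from -2.84 to -1.31 and HDAC7 from -1.86 to -1.09, all past the threshold, while HDAC1 ranged from -0.27 to 0.23.

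The genes around HDAC9 and HDAC7 on their chromosomes are given because the median log2 change of whole chromosomes ranged up to 0.30 among those of the members. The 10 tested genes on either side of HDAC9 had a median log2 change of 0.21, with 8 higher and 3 lower, and the 635 tested genes of chromosome 7 had a median of 0.30. HDAC9 was thus lower against a region that read higher. Of its neighbours the genes GIRGL and LOC101927769 had log2 changes of -1.43 and -1.08 (limma adjusted p = 1.67e-05 and 0.00250), and they were named after their values were seen. The 20 neighbours of HDAC7 had a median of -0.07, with 4 higher and 5 lower, and the lowest of them was SENP1 at -0.65. The neighbours of HDAC2 on chromosome 6 had a median of -0.21 and those of EP300 on chromosome 22 of 0.22. For HDAC1 (chromosome 1), HDAC3 (chromosome 5), HDAC8 (X), HDAC4 (chromosome 2), HDAC5 (chromosome 17) and CREBBP (chromosome 16) the neighbours' median lay between 0.02 and 0.09.

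**Figure D4:**
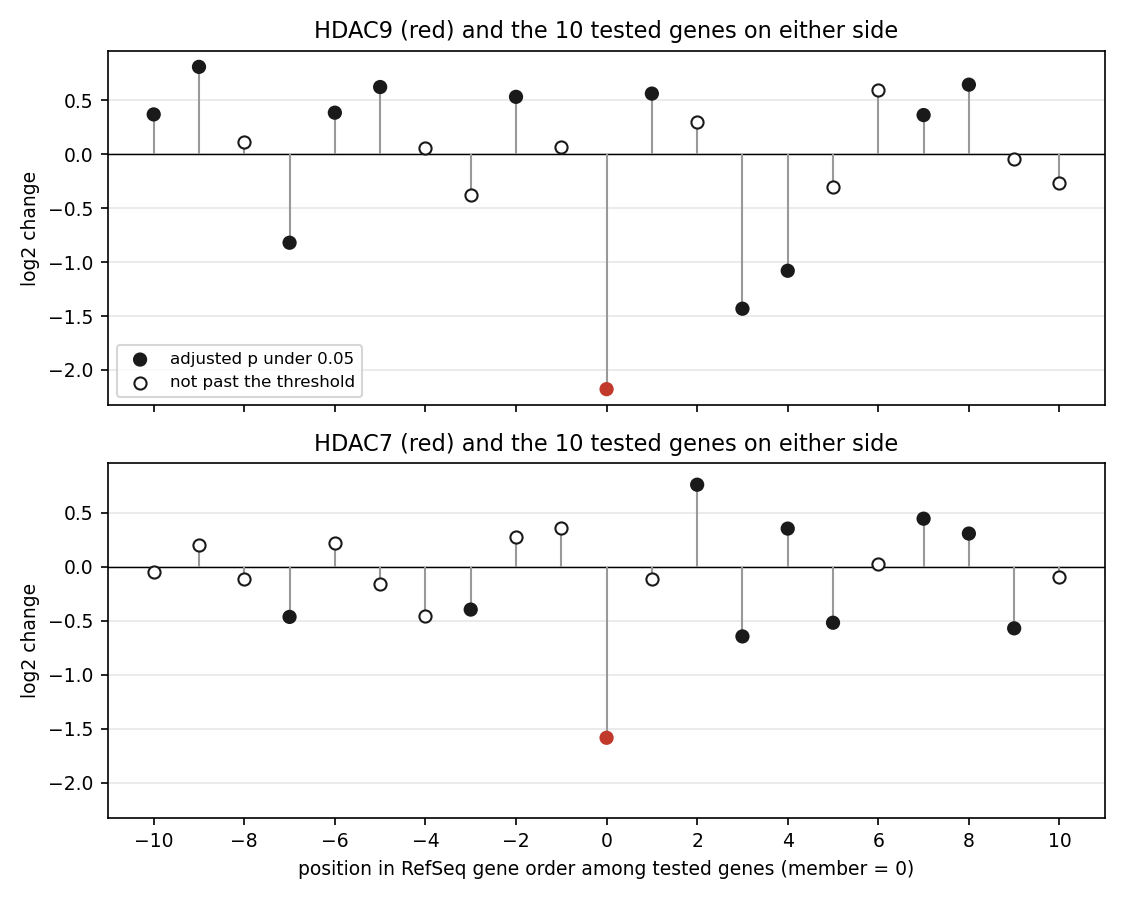
Log2 change (DLEU1-downregulated minus control) of HDAC9 and HDAC7 (red) and of the 10 tested genes on either side in RefSeq gene order, filled where the adjusted p is under 0.05. HDAC9 at -2.18 lies among neighbours with a median of 0.21, and no neighbour of either gene lies below it.

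Other enzymes of lysine acetylation were taken from lists of related genes. The deacetylases HDAC6, HDAC10 and HDAC11 had log2 changes of -0.16, 0.25 and -0.30 in their brightest probe sets, and limma called 0 of the 3 (0 at an unadjusted p under 0.05). Of the 7 sirtuins, which are deacylases that use NAD, 0 passed in limma's test and 1 was lower at an unadjusted p under 0.05. This was SIRT1, at 373.8 and 508.4 in the DLEU1-downregulated clone against 610.1 and 519.8 in the control clone (log2 change -0.36, adjusted p = 0.0778). Of 9 other acetyltransferases tested, 1 rose and 3 fell, with a median of -0.09, whereas as deposited 2 rose, 1 fell and the median was 0.24.

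KAT6A, an acetyltransferase of histone H3, read 287.3 and 311 in the DLEU1-downregulated clone, against 883.9 and 943.8 in the control clone. The clones were far apart, and all 3 of its probe sets fell, with a log2 change of -1.56 in the brightest (limma adjusted p = 3.44e-06). Its paralogue KAT6B fell by 0.49 in the brightest of its 4 probe sets (adjusted p = 3.3e-04), and the other 3 did not pass. KAT5, of the TIP60 complex, fell by 0.45 (adjusted p = 0.0154), measured only by probe sets prone to cross-hybridisation. The falls of KAT6B and KAT5 were not called as deposited, whereas that of KAT6A was.

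HDAC1 and HDAC2 work in the SIN3, NuRD, CoREST and MiDAC complexes, whose genes are given beside the 40.9% of all genes that passed. In the SIN3 complex 6 of 13 tested genes fell and limma called 0 higher (1 at an unadjusted p under 0.05), with a median log2 change of -0.20, but as deposited 1 fell and the median was 0.14. That gene was ARID4B, a subunit with an ARID domain, at 547.6 and 570.4 in the DLEU1-downregulated clone against 1226.6 and 1070.6 in the control clone (log2 change -1.01, adjusted p = 2.59e-05). Of its 4 probe sets 2 fell and 2 did not pass. SAP18 and SAP30, small SIN3-associated proteins, fell in their brightest probe sets, with log2 changes of -0.29 and -0.55, SAP18 turning to 0.09 as deposited, and another SAP18 probe set rose by 0.64. In the NuRD remodelling complex 3 of 9 genes rose and 1 fell, with a median of 0.10, whereas as deposited 3 rose, 0 fell in limma's test (0 at an unadjusted p under 0.05) and the median was 0.41. The subunits MTA2 and GATAD2A rose by 1.06 and 0.54 (adjusted p = 0.00379 and 2.31e-04), GATAD2A in 3 of its 4 probe sets. The methyl-CpG-binding MBD2 fell by 0.52 in its brightest probe set (adjusted p = 4.6e-05), which was not called as deposited. Its other tested probe set did not pass (log2 change -0.07, adjusted p = 0.865). In the CoREST and MiDAC complexes 1 of 10 rose and 4 fell, with a median of -0.13, whereas as deposited 1 of 9 rose, 0 fell in limma's test (0 at an unadjusted p under 0.05) and the median was 0.22. The histone demethylase KDM1A rose by 0.47 (adjusted p = 0.00158), while its partners RCOR1 and PHF21A fell, with log2 changes of -0.82 and -0.72 (adjusted p = 1.98e-04 and 1.36e-04), neither of them called as deposited. Of 4 PHF21A probe sets 2 fell and 2 did not pass.

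For the HDAC3 complex 4 genes were tested, and 1 rose and 2 fell, with a median of -0.13, whereas as deposited 1 rose, 1 fell and the median was 0.23. BCL6, the germinal centre repressor that recruits this complex, read 1032.8 and 974.3 in the DLEU1-downregulated clone, against 3808.6 and 3288.3 in the control clone. It fell in all 3 of its probe sets, with a log2 change of -1.80 in the brightest (limma adjusted p = 1.22e-06). Of the subunits, GPS2 rose by 0.67 (adjusted p = 3.56e-04) and TBL1XR1 fell by 0.28 (adjusted p = 0.00134). The TBL1XR1 value was 0.09 as deposited, and of its 5 probe sets 3 fell and 2 did not pass.

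Partners of the class IIa proteins include the MEF2 factors they bind, the adaptors that hold them in the cytoplasm and the kinases that phosphorylate them. Of 21 tested, 6 rose and 5 fell, with a median of -0.12, whereas as deposited 7 rose, 1 fell and the median was 0.21. MEF2A read 520.7 and 481.9 in the DLEU1-downregulated clone, against 1052.4 and 1104.5 in the control clone. It fell by 1.08 (limma adjusted p = 1.13e-05), and 3 of its 4 probe sets fell. MEF2C read 1423.4 and 1403.9, against 2356.3 and 2325.5, and fell by 0.72 (adjusted p = 1.38e-05), with 2 of 3 probe sets falling and no call as deposited. The phosphoprotein adaptor YWHAB rose by 0.41 (adjusted p = 3.23e-05), and all 3 of its probe sets rose.

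Of 11 tested partners of CREBBP and EP300, 3 rose and 3 fell, with a median of -0.13, whereas as deposited 3 rose, 0 fell in limma's test (0 at an unadjusted p under 0.05) and the median was 0.14. The transcription factor MYB, which binds both coactivators, read 1497.2 on both arrays of the DLEU1-downregulated clone, against 854.1 and 879.6 in the control clone (log2 change 0.78, limma adjusted p = 1.94e-05), and its other tested probe set did not pass (log2 change -0.14, adjusted p = 0.685). CREM, a factor of the cyclic AMP response, fell by 0.74 in the brightest of its 6 probe sets (adjusted p = 1.77e-04), but over these 6 it fell in 3 and rose in 1. HIF1A, the hypoxia factor, fell by 0.39 (adjusted p = 2.91e-04). Neither CREM nor HIF1A was called as deposited. Of 16 tested bromodomain genes, whose products bind acetylated lysines, 5 rose and 4 fell, with a median of -0.07, whereas as deposited 4 rose, 2 fell and the median was 0.26. BRD9 rose by 1.22 (adjusted p = 2.09e-05), and BAZ2B and BRD8 fell, with log2 changes of -1.57 and -0.80 (adjusted p = 2.03e-05 and 2.93e-05), BRD8 not called as deposited. The other tested BRD8 probe set did not pass (log2 change -0.27, adjusted p = 0.311).

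**Figure D5:**
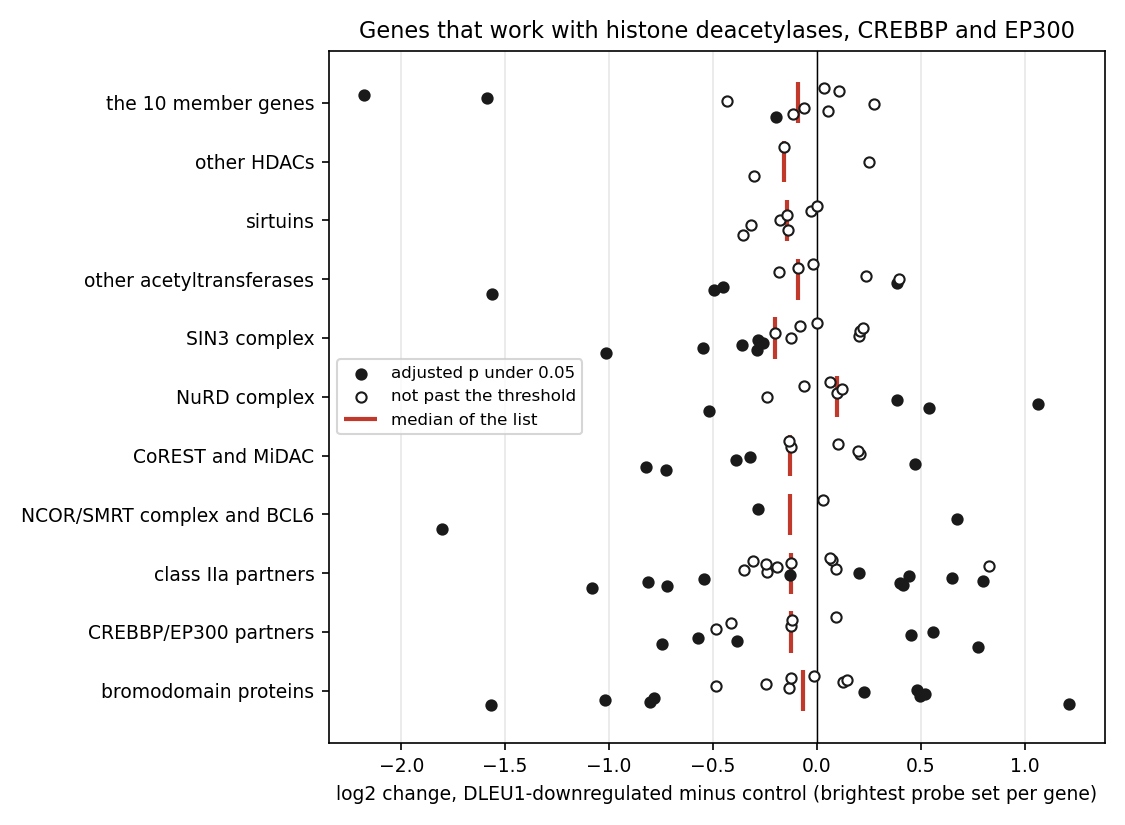
Log2 change (DLEU1-downregulated minus control) of each tested gene, by its brightest probe set, in the member genes and in the 10 lists of related genes, with the median of each list in red and filled points where the adjusted p is under 0.05. HDAC9 and HDAC7 are the 2 lowest of the members, and in the partner lists rises and falls stand side by side.

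Over the 10 lists together 20 genes rose and 28 fell of 103 tested, so that 46.6% passed, against 40.9% of all genes tested. On the values as deposited 21 rose and 6 fell of 102 tested, where 20.2% of all genes rose and 5.71% fell. Of the 24 named partner genes past the threshold, 12 were also past it as deposited. Markers of T cells, stromal cells and myeloid cells summed higher in the DLEU1-downregulated clone, and their part in the results was not tested. For T cells and stromal cells this came mainly through 1 gene each. The 6 T-cell markers summed to 101.9 and 110.4, against 72.1 and 52.5, and the 6 stromal markers to 210 and 188.3, against 128.4 and 134.2. Without TRAT1 the T-cell sums were 61.4 and 57.8, against 61.4 and 42.5, and without COL1A1 the stromal sums were lower in the DLEU1-downregulated clone, at 65.2 and 29.9, against 95 and 92.8. The 6 myeloid markers summed to 57 and 55.9, against 45.2 and 44.1, and 2 of them lay above the limit for dim probe sets. Without CSF1R the myeloid sums were still higher in the DLEU1-downregulated clone, at 39.6 and 37.2, against 29.2 and 22.2. The highest mean of a gene in these lists was 28.5 for T-cell, 18.5 for myeloid and 94.5 for stromal markers, the last in COL1A1, and no marker was listed at 0. Of the 4 T-cell markers above the limit for dim probe sets TRAT1 rose by 1.24 on the log2 scale, and of the 4 such stromal markers COL1A1 rose by 1.65 and COL1A2 fell by 1.14. TRAT1 read 40.5 and 52.6, against 10.8 and 10 in the control clone, both below the limit of 11.4. It was thus tested only through its values in the DLEU1-downregulated clone.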

How the data were processed

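The expression of 2 Raji clones was measured on 2 arrays each. The authors deposited MAS5 signal intensities on a linear scale, a unit named per the labels' processing notes. The sources used here give no MAS5 version, no target intensity and no detection calls. Intensities of 54613 probe sets were quantile-normalized, without the 62 control probe sets, and turned into log2(intensity + 16). Probe sets whose mean log2 value lay below the 40th percentile were left out, which left 32768. limma 3.58.1 in R 4.3.3 (lmFit, eBayes with an intensity trend, prior degrees of freedom 6.76) tested group alone, with Benjamini-Hochberg adjustment over all probe sets and a threshold of 0.05, and the fit was tested on simulated data. Symbols came from the platform annotation, updated through the gene identifier against RefSeq GRCh38.p14 (41037 of 41091 probe sets with 1 symbol). A gene was represented by its brightest tested probe set, without the suffix _x_at where possible. The text names every member, DLEU1 and up to 3 genes with the smallest p in each list of related genes. Members and lists were chosen with earlier results of these data known. The arrays' number limits the precision. Alternatives were other scalings, pseudocounts, filters and variance models, a replicate block, and leaving out each array.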

Additional observations from a re-analysis of the deposited data

How the results depend on the processing

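HDAC9 (205659_at), HDAC7 (217937_s_at) and DLEU1 kept direction and call in all 16 alternatives run. HDAC1 was called in 8 of 16, the HDAC8 probe set 223908_at in 13 and the CREBBP probe set 228177_at in 9. HDAC1 reversed to 0.19 as deposited and 0.23 with median centring, SAP18 to 0.094 and 0.138, TBL1XR1 to 0.087 and 0.131, and HIF1A to 0.006 with median centring, and the cause was not tested. Over all probe sets 10420 were higher with median centring, 3576 with eBayes without a trend and 3039 with an added limit of 1.5-fold, against 5588 in the report. Lower were 1673 as deposited, 2482 with median centring, 3580 without a trend and 3037 at 1.5-fold, against 5485. Of the called probe sets 50.5% were higher, and 77.1% as deposited. Member probe sets called higher, 2 in the report, were 6 with median centring, 1 with a common trimmed mean, with an added 1 or with no filter on dim probe sets, and 0 in limma without a trend (1 at an unadjusted p under 0.05). Member genes called higher, 0 in the report, were 4 with median centring (HDAC3, HDAC4, CREBBP and EP300). Partner genes called higher, 20 in the report, were 39 with median centring, 12 without a trend and 6 at 1.5-fold. Those called lower, 28 in the report, were 6 as deposited, 12 with median centring, 17 without a trend and 13 at 1.5-fold. Leaving out 1 array at a time gave 3415 to 5237 probe sets higher, 0 to 2 member probe sets higher, 0 to 1 member genes higher and 13 to 21 partner genes higher. The 0 came without replicate 1 of the DLEU1-downregulated clone, where limma found 2 at an unadjusted p under 0.05. For the member probe sets and the genes with the smallest p in each list, another 28 single fits changed sign without a call in either setting. The same value can count more than once among these fits. Same-numbered arrays did not deviate together (correlation across probe sets -0.01). Whether they were prepared together is not in the labels, and this correlation cannot decide it. With the replicate block 5658 probe sets were higher and 5527 lower, and HDAC9, HDAC7, HDAC1, HDAC8 and CREBBP kept their calls. Quantile normalization assumes that the arrays share 1 distribution, and the small log2 changes of bright probe sets such as HDAC1 depend on it.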

Other observations

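EP300-AS1, a non-coding gene annotated antisense to EP300 and named here after its values were seen, read 103 and 102.2 in the DLEU1-downregulated clone, against 45.1 and 48.3 in the control clone. It rose by 0.92 ± 0.16 (SE) with limma adjusted p = 0.00201, and by 1.09 as deposited (adjusted p = 3.04e-04), while EP300 passed in neither of its probe sets. Among the other antisense genes of the members, HDAC4-AS1 read 31.9 and 26.3, against 37.6 and 34.9 (log2 change -0.21, adjusted p = 0.470), and HDAC2-AS2 was dim. Averaging the tested probe sets of a gene brought HDAC7 to -0.85, still past the threshold (limma adjusted p = 0.00308). HDAC9 has a single tested probe set, so averaging could not change its -2.18 (adjusted p = 4.1e-05).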
